A study of Homo sapiens with 3 samples.

Results

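The transcripts of 10 inflammatory cytokine and chemokine genes were examined in H660 cells treated with the HSP70 inhibitor JG231. The genes are CSF2, CXCL8, CXCL1, CXCL2, CXCL3, IL6, LIF, CCL20, TNF and IL1A, chosen by symbol out of 58735 genes in the expression table. They were picked with their values in these libraries known, so all values are a description and no test is attached to them. H660 (NCI-H660) is an established human prostate cancer cell line of neuroendocrine type, entered in the sample records as parental cells and as prostatic adenocarcinoma. JG231 is an allosteric inhibitor of HSP70, the chaperone that folds client proteins and can hand them to degradation. RNA was taken from cells given vehicle (DMSO), 2.5 μM JG231 or 5 μM JG231 for 24 h, with 1 library for each. There is no replicate, no standard deviation can be given, and both JG231 libraries were compared with the same DMSO library.

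Cytokines and chemokines are small secreted proteins that act on neighbouring cells through surface receptors. Their genes are typically held at a low level and transcribed within hours of a stimulus by NF-κB, AP-1 and C/EBP factors bound near the start site. Their mRNAs are short-lived, since AU-rich elements in the 3′UTR recruit decay factors. CSF2 encodes GM-CSF, a growth factor of granulocytes and macrophages, CXCL8 encodes the neutrophil chemoattractant IL-8, and CXCL1, CXCL2 and CXCL3 encode ligands of the same receptor, CXCR2. IL6 and LIF signal through the shared receptor chain gp130, CCL20 attracts cells bearing CCR6, and TNF and IL1A are apical inflammatory cytokines.

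In both JG231 libraries, 6 of the 10 genes were higher than in DMSO (CSF2, CXCL8, CXCL2, CXCL3, LIF and TNF) and CCL20 was lower. CXCL2 at 5 μM is uncertain, since its counting interval included no change and only 5 genes were higher there when libraries were rescaled to the genes other than mitochondrial and small RNA genes. A gene was counted as changed when its FPKM was over 1 in either library and its log2 ratio, with 0.1 FPKM added to both values, passed 0.25 in either direction. The FPKM cut, the added value and the threshold are those of the study's methods, which also kept genes that went to or from 0. Without the cut, IL6 and IL1A would count as well and 3 genes would be lower at each dose. FPKM counts the fragments of a gene relative to its transcript length and to the size of the library. By the same rule 36.4% of 15746 genes were higher at 2.5 μM and 36.5% of 15765 genes at 5 μM, while 43.4% and 45.1% were lower. A log2 change of more than 1 was reached by 5 genes at each dose, the 6 without CXCL2, beside 12.9% and 14.7% of all genes, and none fell as far, beside 21.7% and 24.3%. CXCL3 passed by little at 2.5 μM. Its log2 changes were 0.71 and 0.91, and that of CCL20 at 2.5 μM was -1.13, when libraries were rescaled to the genes other than mitochondrial and small RNA genes. CXCL1, IL6 and IL1A were never over 1 FPKM. CSF2 passed the filter only through the JG231 libraries, so it could only be counted as higher. In such bulk libraries more cells expressing a gene and more RNA per cell cannot be told apart. Over the 7 genes that passed, the median log2 changes at the lower and the higher dose were 1.55 and 2.24, beside -0.08 and -0.11 over all genes that passed. Those 7 leave out IL6 and IL1A, and over all 10 genes with no filter the medians were 0.81 and 0.83.

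Promoter sequence upstream of the start site is printed for 8 genes as a description, since the factors named above bind near the start site. Whether the promoters had a part in the changes was not tested. Sequences are from RefSeq on GRCh38.p14, written 5′ to 3′ on the strand of the gene and covering bases -140 to -21 from its start site. The motif search covered 300 bases of each promoter, from 250 before the start site to 50 after it, and the printed windows are part of these. Capitals mark matches to the 10-letter NF-κB consensus or to a shorter core, GGANNTTCC, and matches to AP-1 (TGANTCA) and to TATAA. No RefSeq entry was matched for LIF, and IL1A, with 2 entries, is described without letters.
CSF2, chr5:132073649-132073768, plus strand: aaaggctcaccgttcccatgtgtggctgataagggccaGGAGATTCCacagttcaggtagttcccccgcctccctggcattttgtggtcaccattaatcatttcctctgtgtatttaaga
CXCL8, chr4:73740429-73740548, plus strand: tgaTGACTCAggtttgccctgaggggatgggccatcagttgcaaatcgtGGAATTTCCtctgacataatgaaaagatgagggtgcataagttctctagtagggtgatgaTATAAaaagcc
CXCL1, chr4:73869253-73869372, plus strand: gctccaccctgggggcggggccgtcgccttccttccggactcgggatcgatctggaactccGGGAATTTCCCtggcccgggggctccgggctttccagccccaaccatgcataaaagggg
CXCL2, chr4:74099216-74099335, minus strand: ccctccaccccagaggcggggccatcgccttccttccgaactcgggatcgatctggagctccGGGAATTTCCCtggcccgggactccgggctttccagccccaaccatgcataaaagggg
CXCL3, chr4:74038710-74038829, minus strand: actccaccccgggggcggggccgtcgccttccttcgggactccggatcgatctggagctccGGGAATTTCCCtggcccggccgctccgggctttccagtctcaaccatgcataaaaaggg
IL6, chr7:22727060-22727179, plus strand: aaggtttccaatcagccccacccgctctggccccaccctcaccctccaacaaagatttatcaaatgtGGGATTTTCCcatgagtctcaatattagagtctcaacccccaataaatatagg
CCL20, chr2:227813702-227813821, plus strand: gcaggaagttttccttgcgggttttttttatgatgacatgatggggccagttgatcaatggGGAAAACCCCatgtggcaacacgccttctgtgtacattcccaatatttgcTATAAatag
TNF, chr6:31575425-31575544, plus strand: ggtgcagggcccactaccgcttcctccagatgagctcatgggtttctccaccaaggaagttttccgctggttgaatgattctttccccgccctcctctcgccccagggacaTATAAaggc

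The NF-κB consensus was found in the promoters of CXCL1, CXCL2, CXCL3, IL6 and CCL20, 5 of the 9 genes with an entry, and in 11.3% of 35116 RefSeq promoters searched over the same 300 bases. In CCL20 it lies on the opposite strand. The shorter core, which was chosen after the sequences were seen, was found in CSF2, CXCL8, CXCL1, CXCL2, CXCL3 and IL6, and in 4.56% of all promoters. It overlaps the consensus in the 4 genes that hold both. The matches sit at like distances, with the first base of the core at -102 from the start site in CSF2, -91 in CXCL8, -78 in CXCL1 and CXCL3, -77 in CXCL2 and -72 in IL6. Both IL6, which was not raised, and CCL20, which was lower, carry the consensus, so that the genes with a match differed in their values.
An AP-1 match was found in CXCL8 and in IL1A, and in 7.71% of all promoters. A C/EBP match (TTNCNNAA) was present in CXCL2, IL6, TNF and IL1A, against 36.8% of all promoters. The element of ATF4 and CHOP dimers (TGATGNAA) was present in none of the 9 genes and in 3.62% of all promoters. TATAA on the gene strand was found in CXCL8, CCL20, TNF and IL1A and in 14.8% of all promoters. All motifs but TATAA were searched on both strands. A match is a run of letters and no binding was measured here.

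CSF2 (ENSG00000164400, chr5:132073789-132076170 on GRCh38, plus strand) stepped from almost no signal in DMSO to a clear level in both JG231 libraries. The DMSO library held it at 0.237 FPKM, the 2.5 μM library at 11.4 and the 5 μM library at 8.40. The DMSO value is low and stands on 3.00 fragments, against 183 at 2.5 μM and 159 at 5 μM. The level at 5 μM was the lower of the pair. The FPKM ratio to DMSO was 48.2 at 2.5 μM, with a 95% counting interval of 16.2 to 236, and 35.4 at 5 μM, with an interval of 11.9 to 174. These exact intervals use fragments recovered from the FPKM values and cover counting error only, since PCR copies of a molecule are not independent. On the log2 scale the changes were 5.09 and 4.66. Since no replicate error exists, each change is set beside a spread, a robust standard deviation, over 500 genes of similar mean FPKM, of the log2 ratio of the JG231 libraries to each other. For CSF2 this spread was 0.34, which does not cover the error of its 3.00 fragments in DMSO.
Few genes shared the step from almost no fragments to many. Of 37838 genes with at most 3 fragments in DMSO, rounded to whole fragments, 4 had at least 100 in both JG231 libraries, namely CSF2, CLIP4, the lncRNA AC006329.1 and the keratin pseudogene KRT8P36. These limits were set with the values of CSF2 known, and IL1RN, with 2.29, 95.2 and 99.8 fragments, lay just outside them. The pair of log2 changes nearest to that of CSF2 over the 3 libraries belonged, out of 16347 genes, to AC106047.1, AC087481.2, AL606469.1, RNU6-323P and RPS23P1. All 5 are noncoding genes or pseudogenes listed at 0 in DMSO, and they lay within 0.40 on the log2 scale. Their levels in the JG231 libraries were 1.94 to 3.67 FPKM, below those of CSF2. AL606469.1 had the most fragments of the 5, with 53.0 at 2.5 μM and 61.0 at 5 μM. With a listed 0 in DMSO, the size of these changes is set by the JG231 level and the 0.1 FPKM added. Their nearness to CSF2 therefore does not show that they rose as CSF2 did.

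**Figure D1:**
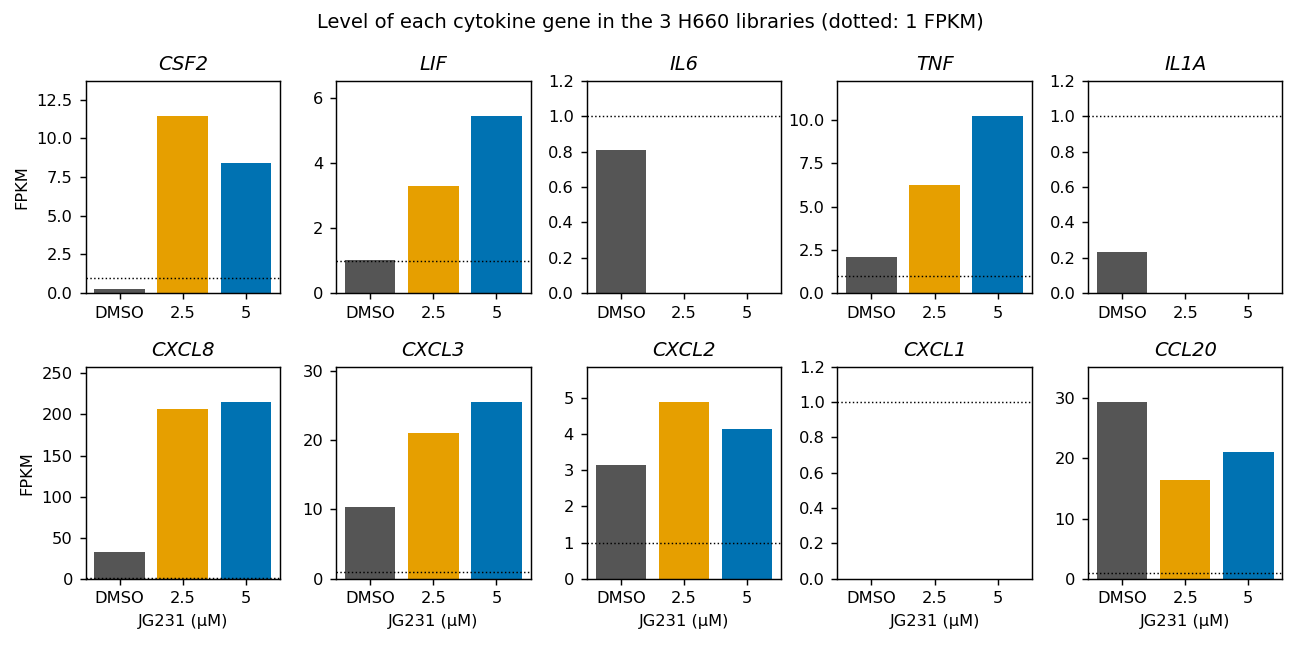
Bars show the FPKM of each of the 10 genes in the DMSO, 2.5 μM and 5 μM libraries, 1 library each, with a separate axis for every gene and a dotted line at 1 FPKM. CXCL8 reached 207 and 215 FPKM, IL6 and IL1A were above 0 in DMSO alone, and CXCL1 was listed at 0 in all 3 libraries.

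CXCL8 (ENSG00000169429, chr4:73740519-73743716, plus strand) had the highest FPKM of the 10 genes in both JG231 libraries, and in DMSO it did not differ from CCL20 beyond the spread. The DMSO library had 32.5 FPKM of CXCL8, the 2.5 μM library 207 and the 5 μM library 215, from 1354, 10923 and 13398 fragments. Both JG231 libraries were higher than DMSO by a like amount. The ratio was 6.37 at 2.5 μM (95% counting interval 6.02 to 6.74) and 6.61 at 5 μM (6.26 to 7.001). The log2 changes were 2.67 and 2.72, with a spread of 0.21. CXCL8 alone made up 40.7% of the FPKM summed over the 10 genes in DMSO, 76.6% at 2.5 μM and 74.2% at 5 μM. That sum rose from 79.9 FPKM to 270 and 290.

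The 3 GRO chemokines were unequal. CXCL3 (ENSG00000163734, chr4:74036589-74038807, minus strand) had 10.4 FPKM with DMSO, 21.0 with 2.5 μM and 25.5 with 5 μM JG231. Its ratios were 2.01 (1.78 to 2.28) and 2.45 (2.18 to 2.75), and its log2 changes were 1.003 and 1.28 beside a spread of 0.28. CXCL2 (ENSG00000081041, chr4:74097040-74099196, minus strand) had 3.15, 4.88 and 4.13 FPKM, from 70.8, 139 and 139 fragments. Its ratio was 1.55 (1.15 to 2.09) at 2.5 μM and 1.31 (0.977 to 1.77) at 5 μM. The second interval includes 1, and the log2 change of 0.38 at 5 μM was below the spread of 0.53, so a difference in CXCL2 at 5 μM was not detectable at this depth. That change was 0.01 with libraries rescaled to the genes other than mitochondrial and small RNA genes. CXCL1 (ENSG00000163739, chr4:73869393-73871308, plus strand) was listed at 0 in all 3 libraries.
These genes are near copies of each other, and how the counting treated shared reads is not given in the sources used here. The coding sequence of CXCL1 was identical to that of CXCL2 at 93.5% of aligned positions and to that of CXCL3 at 90.7%, and CXCL2 and CXCL3 were identical at 94.4%. CXCL1 and CXCL8 were identical at 51.6%. The printed promoter windows of CXCL1 and CXCL2 were identical at 91.7% of positions. The separate values of CXCL1, CXCL2 and CXCL3, the 0 of CXCL1 included, are therefore uncertain.

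Along chromosome 4 the CXC genes lie in a cluster with other chemokines, and its members differed from each other. In gene order the cluster holds CXCL8, CXCL6, PF4V1, CXCL1, PF4, PPBP, CXCL5, CXCL3 and CXCL2. PF4V1, PF4 and PPBP, platelet chemokines, were listed at 0 in every library. CXCL5, a neutrophil attractant next to CXCL3, had 0.710 FPKM in DMSO and was listed at 0 at both doses, so it was above 0 only where CXCL3 was lowest. Beyond CXCL2, the metabolic gene MTHFD2L stayed within 0.25 on the log2 scale (1.25, 1.27 and 1.40 FPKM), and EREG was at 0. AREG, which encodes the EGF receptor ligand amphiregulin, had 2.19 FPKM with DMSO, and 29.5 and 28.1 with the lower and the higher dose. Its log2 changes of 3.69 and 3.62 exceeded those of every CXC gene there.

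**Figure D2:**
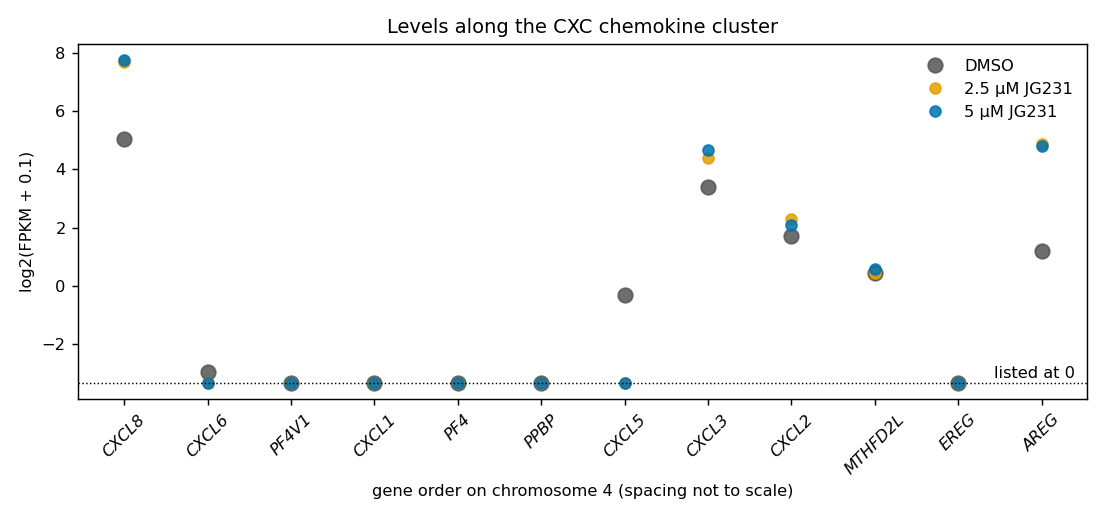
Points give log2(FPKM + 0.1) for 12 genes in their order on chromosome 4, 1 point for each library, with genes at the dotted line listed at 0. CXCL8, CXCL3 and AREG are higher in both JG231 libraries, MTHFD2L is level, and 5 genes are at 0 in all 3.

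LIF and TNF were higher at 5 μM than at 2.5 μM. LIF (ENSG00000128342, chr22:30240453-30246759, minus strand) had levels of 1.03, 3.31 and 5.45 FPKM in DMSO, 2.5 μM and 5 μM, from 64.4, 261 and 507 fragments. Its ratios to DMSO were 3.21 (2.44 to 4.30) and 5.27 (4.08 to 6.98), with log2 changes of 1.59 and 2.29 and a spread of 0.52. TNF (ENSG00000232810, chr6:31575565-31578336, plus strand) had 2.08, 6.27 and 10.2 FPKM, from 56.1, 214 and 412 fragments. Its ratios were 3.02 (2.24 to 4.13) and 4.92 (3.71 to 6.63), with log2 changes of 1.55 and 2.24 and a spread of 0.40. For both genes the 3 libraries stood in the order of dose.

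CCL20 (ENSG00000115009, chr2:227805739-227817564, plus strand) moved the other way. Its levels in the same order were 29.4, 16.4 and 21.1 FPKM, from 753, 533 and 808 fragments. Its ratio was 0.559 (0.499 to 0.625) at 2.5 μM and 0.717 (0.649 to 0.793) at 5 μM, with log2 changes of -0.84 and -0.48 and a spread of 0.25. In DMSO, CCL20 was close to CXCL8, a difference of 0.15 on the log2 scale that is within the spread.

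IL6 and IL1A were above 0 in the DMSO library alone. IL6 (ENSG00000136244, chr7:22725884-22732002, plus strand) had 0.811 FPKM there, a low value from about 56.4 fragments, and was listed at 0 at 2.5 μM and at 5 μM. IL1A (ENSG00000115008, chr2:112773925-112784493, minus strand) had 0.234 FPKM, about 7.60 fragments, and was listed at 0 at both doses. No fold is given, because a listed 0 may not be a count of 0. Protein-coding genes above 0 with at most 8 fragments numbered 774 in DMSO, 582 at 2.5 μM and 127 at 5 μM, although the 5 μM library was the deepest. Of 884 protein-coding genes with 40 to 80 fragments in DMSO, 3.05% were listed at 0 at both doses, and of 561 with 5 to 11 fragments, 42.6% were.

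**Figure D3:**
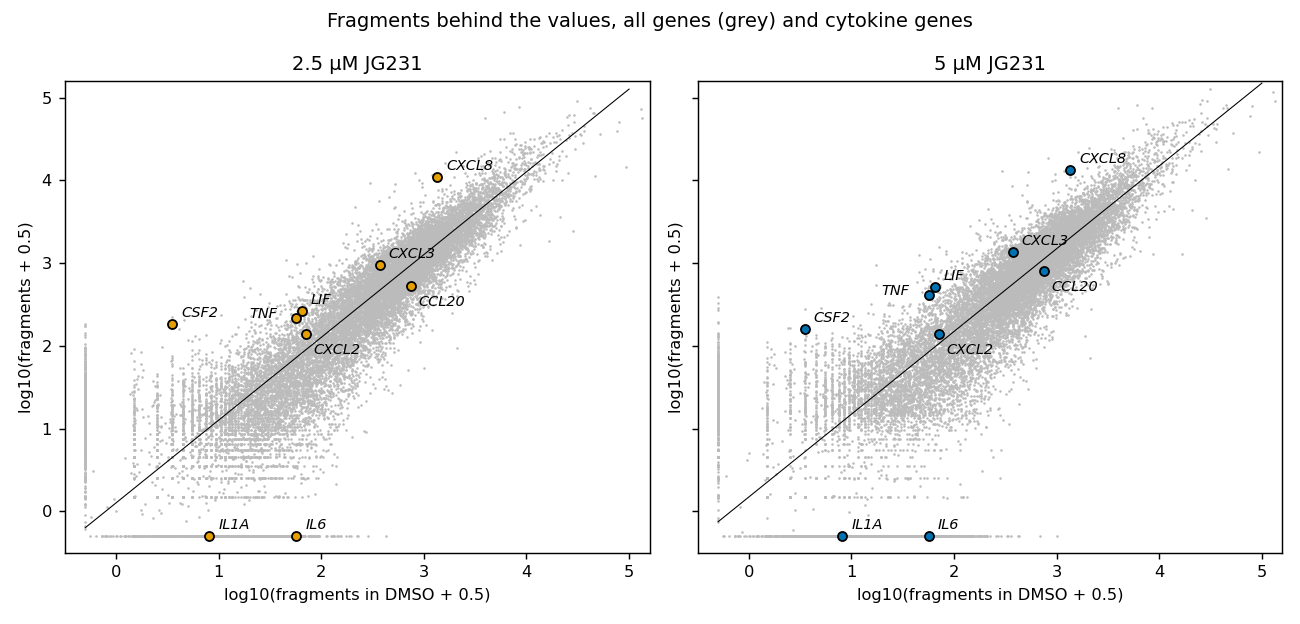
Each grey point is a gene, with log10 of its fragments plus 0.5 in DMSO against the 2.5 μM library (left) or the 5 μM library (right), and the line marks equal FPKM. CSF2 rises from 3.00 fragments in DMSO to 183 and 159, while IL6 and IL1A lie on the lower edge among genes listed at 0.

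The genes can be ordered within a library by FPKM, which here is a value per length of all exons of a gene and so depends on that length. The spread describes the ratio between the JG231 libraries and leaves out the DMSO library. It is therefore only a rough yardstick for differences between genes within a library, not their error. In DMSO the order by FPKM was CXCL8, CCL20, CXCL3, CXCL2, TNF, LIF, IL6, CSF2 and IL1A, and the neighbours CXCL8 and CCL20, LIF and IL6, and CSF2 and IL1A differed by less than the spread. At 2.5 μM it was CXCL8, CXCL3, CCL20, CSF2, TNF, CXCL2 and LIF, and TNF and CXCL2 differed by less than the spread. At 5 μM it was CXCL8, CXCL3, CCL20, TNF, CSF2, LIF and CXCL2, and the neighbours CXCL3 and CCL20, TNF and CSF2, and LIF and CXCL2 were each within it. With fragments per base of the canonical transcript instead, a length chosen after seeing the data, CCL20 stood before CXCL8 and IL6 before TNF and LIF in DMSO, and the order in the JG231 libraries was unchanged. The places of CXCL2 and CXCL3 share the uncertainty of their values. CSF2 moved from the lowest levels in DMSO to the middle of the order. Genes over 1 FPKM numbered 6 in DMSO and 7 in each JG231 library.

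Between the doses, without use of the DMSO library, 4 of the 7 genes that passed the filter were higher at 5 μM (CXCL3, LIF, TNF and CCL20) and CSF2 was lower. By the same rule 26.8% of 14197 genes were higher and 30.1% were lower. LIF differed by 0.70 on the log2 scale, a ratio of 1.64 (1.41 to 1.92), and TNF also by 0.70, a ratio of 1.63 (1.38 to 1.93). CCL20 differed by 0.36, CXCL3 by 0.28 and CSF2 by -0.44. CXCL8 (0.05) and CXCL2 (-0.23) were within 0.25. None of the 7 passed a threshold of 1, beside 7.47% of all genes higher and 8.09% lower. With each library rescaled to the same summed FPKM, the differences of LIF and TNF were 0.52 and those of CXCL3 and CCL20 fell to 0.10 and 0.18, so LIF and TNF counted as higher, and CXCL2 (-0.41) joined CSF2 (-0.62) as lower. Over all genes 2404 of 14208 were higher and 6422 lower with that rescaling. CXCL2 was also lower, at -0.32, when libraries were rescaled to the genes other than mitochondrial and small RNA genes. CXCL3 (0.19) then no longer counted as higher, and 3 genes did.

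**Figure D4:**
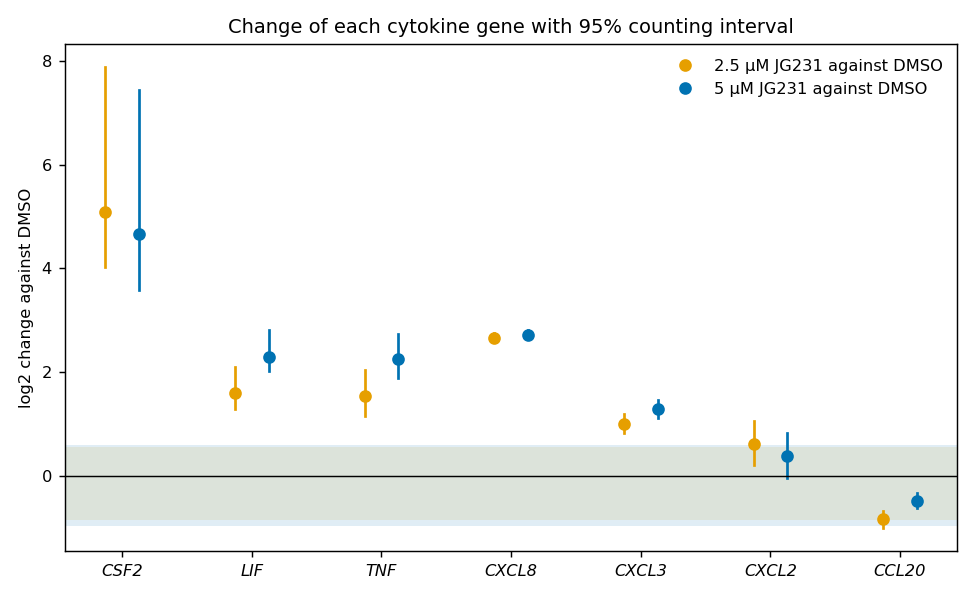
Points give the log2 change against DMSO, with 0.1 FPKM added, at 2.5 μM and 5 μM for the 7 genes over 1 FPKM, with bars for the 95% counting interval of the FPKM ratio and bands from the lower to the upper quartile of all genes. Only the CXCL2 bar at 5 μM reaches 0, and CCL20 alone lies below it.

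The 3′UTR of each gene was searched for ATTTA, the core of AU-rich elements, on the canonical GENCODE transcript. All 10 genes held 3 to 10 copies, with a median of 7, beside a median of 2 over 19397 genes. Runs of at least 3 overlapping copies were present in 4 of the 10 genes and in 0.949% of all genes, and are printed because such runs mark the classic cytokine element.
CSF2, chr5:132076081-132076101, plus strand: ATTTATTTATTTATTTATTTA
CXCL2, chr4:74097590-74097610, minus strand: ATTTATTTATTTATTTATTTA
CXCL1, chr4:73870682-73870694, plus strand: ATTTATTTATTTA
TNF, chr6:31578020-31578032, plus strand: ATTTATTTATTTA
CSF2 and CXCL2 share a run of the same length, and their log2 changes at 5 μM were 4.66 and 0.38. IL6, with 6 copies in 425 bases, and CCL20, with 3 in 473 bases, were at 0 and lower, respectively, in the JG231 libraries. Of 18 genes for AU-rich decay and stability factors, all over 1 FPKM, 5 were higher and 3 lower at 2.5 μM (beside 36.4% and 43.4% of all genes), 5 were higher and 5 lower at 5 μM (beside 36.5% and 45.1%), and the medians were 0.01 and -0.07. ZFP36L2, a decay factor of the tristetraprolin family, had 14.6, 35.1 and 41.7 FPKM in DMSO, 2.5 μM and 5 μM. Its paralogue ZFP36L1 had 14.3, 45.9 and 30.4 FPKM, and TIA1, a translational repressor, was lower with 37.0, 21.3 and 19.2 FPKM.

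Of 14 genes for receptors of these ligands, 7 were listed at 0 throughout and 5 passed the filter. Of these 5, 1 was higher and 3 were lower at 2.5 μM, and none was higher and 3 were lower at 5 μM. Over all genes 36.4% and 36.5% were higher and 43.4% and 45.1% lower. CSF2RA and CSF2RB, the GM-CSF receptor chains, CXCR1 and CXCR2, the IL-8 receptors, and CCR6 were listed at 0 in every library. TNFRSF1B, which encodes TNF receptor 2, had 50.5, 13.05 and 10.5 FPKM in DMSO, 2.5 μM and 5 μM. LIFR had 12.7, 7.33 and 4.02 FPKM and IL6ST, which encodes gp130, had 31.4, 21.9 and 15.5 FPKM. LIFR and IL6ST were thus lowest in the library in which their ligand LIF was highest. TNFRSF1A, TNF receptor 1, had 9.08, 11.4 and 8.82 FPKM.

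Of 20 NF-κB subunits and feedback genes, 16 were higher and 3 lower at 2.5 μM and 15 higher and 1 lower at 5 μM, with medians of 0.89 and 0.76. Over all genes 36.4% and 36.5% were higher. NFKBIA, which encodes the inhibitor IκBα and is itself an NF-κB target, had 112, 460 and 514 FPKM, and RELB, a subunit of the noncanonical pathway, had 5.82, 32.0 and 33.4 FPKM. IKBKB, which encodes the kinase IKKβ, was lower, with 5.98, 3.89 and 4.41 FPKM. All 16 AP-1, C/EBP and ATF genes that passed at 2.5 μM and all 15 at 5 μM were higher, with medians of 1.53 and 1.87. ATF3, a stress-induced factor, had 12.8, 152 and 191 FPKM, CEBPB, a C/EBP factor of cytokine promoters, 54.7, 434 and 497 FPKM, and DDIT3, which encodes CHOP, 24.8, 338 and 397 FPKM. Rescaling to the summed FPKM of the genes other than mitochondrial and small RNA genes lowered the median gene to -0.40 and -0.53. Over all genes 3976 of 16162 were then higher and 9083 lower at 2.5 μM, and 3710 of 16143 higher and 9704 lower at 5 μM. Under this rescaling all AP-1, C/EBP and ATF genes that passed were still higher. Of the NF-κB genes 14 were higher and 3 lower at 2.5 μM and 12 higher and 4 lower at 5 μM, with medians of 0.61 and 0.38. Of the 18 AU-rich decay factors 3 were then higher and 9 lower at 2.5 μM and 3 higher and 11 lower at 5 μM. These counts are not far from the shares over all genes, and the medians were -0.28 and -0.45. Of the 5 receptor genes that passed, 4 were then lower at 2.5 μM and 5 at 5 μM, and TNFRSF1A no longer counted as higher at 2.5 μM.

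Of 100 other cytokine and chemokine genes, 53 were listed at 0 throughout and 21 passed the filter, of which 10 were higher and 8 lower at 2.5 μM and 9 higher and 11 lower at 5 μM. Over all genes 36.4% were higher and 43.4% lower at 2.5 μM, and 36.5% and 45.1% at 5 μM, so these counts are not far from the background. IL32 rose from 11.9 FPKM in DMSO to 48.7 and 57.3, and TSLP, an epithelial alarmin, had 0.537, 3.52 and 1.98 FPKM. CCL28, a mucosal chemokine, fell from 38.4 FPKM to 6.20 and 5.99, and CXCL17 from 110 FPKM to 56.6 and 58.1. IL1RN, the antagonist of the IL-1 receptor in the IL1 gene cluster, had 0.0382, 1.25 and 1.11 FPKM, while IL1B was at 0. LTB, beside TNF on chromosome 6, had 3.48, 7.87 and 4.41 FPKM, and LTA on the other side was at 0. IL3, beside CSF2, was at 0 in every library, and P4HA2, a collagen hydroxylase gene on its other flank, had 5.87, 14.2 and 14.5 FPKM.
Interferon-stimulated genes had medians of 0.66 at 2.5 μM and 0.19 at 5 μM, with 13 of 22 higher and 2 lower at 2.5 μM and 10 of 21 higher and 5 lower at 5 μM. Over all genes 36.4% and 36.5% were higher and 43.4% and 45.1% lower. GBP2, a guanylate-binding protein, had 1.72, 20.7 and 17.2 FPKM. After rescaling to the genes other than mitochondrial and small RNA genes, 12 interferon-stimulated genes were higher and 7 lower at 2.5 μM and 10 higher and 9 lower at 5 μM. Their medians were then 0.38 and -0.18, beside -0.40 and -0.53 over all genes. With this rescaling 3976 of 16162 genes were higher and 9083 lower at 2.5 μM, and 3710 of 16143 higher and 9704 lower at 5 μM. Innate sensors and adaptors had medians of -0.35 and -0.34, with 7 of 15 higher and 8 lower at 2.5 μM and 6 of 15 higher and 8 lower at 5 μM, also not far from the shares over all genes. After the same rescaling 5 were higher and 8 lower at 2.5 μM and 5 higher and 9 lower at 5 μM, with medians of -0.64 and -0.71. RIPK2, the kinase of the NOD receptors, had 24.7, 89.5 and 74.5 FPKM, and MAVS, the adaptor of the RNA sensors, had 13.6, 4.71 and 4.62 FPKM.

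**Figure D5:**
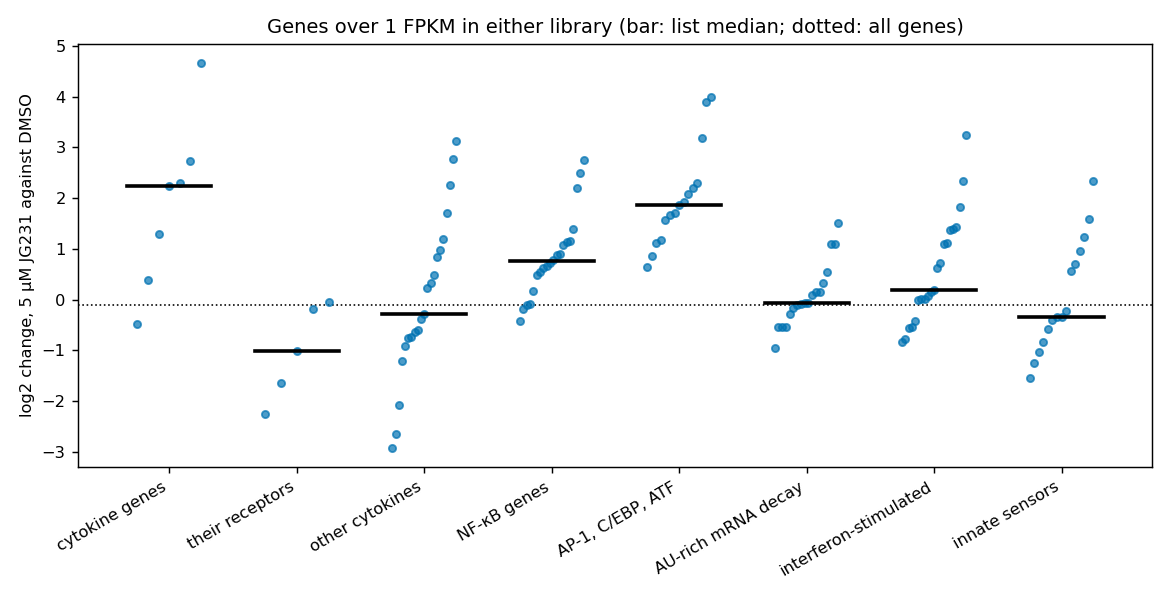
Each point is the log2 change of a gene at 5 μM against DMSO, with 0.1 FPKM added, in the cytokine list and 7 related lists, for genes over 1 FPKM in either library. Black bars give list medians, such as 1.87 for AP-1, C/EBP and ATF genes and -1.01 for the receptors, and the dotted line is the median of all genes (-0.11).

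Several features of the libraries moved with these values. Depth recovered from the FPKM steps was 16.1 M fragments in DMSO, 20.4 M at 2.5 μM and 24.1 M at 5 μM, and genes above 0 numbered 21862, 19352 and 17293. Protein-coding genes with transcripts under 1000 bases changed by a median of 0.42 on the log2 scale at 2.5 μM and 0.61 at 5 μM, those of 1000 to 3000 bases by 0.19 and 0.27, and those over 3000 bases by -0.13 and -0.25. Of the 10 cytokine transcripts, CSF2 and CCL20 were under 1000 bases, LIF was over 3000 and the other 7 lay between. Mitochondrial and small RNA genes held 40.4%, 24.6% and 29.2% of the summed FPKM. All 6 neuroendocrine markers were over 1 FPKM in each library, with a summed level of 428, 176 and 151 FPKM. Of 9 prostate epithelial markers EPCAM, KRT8, KRT18 and CDH1 were over 1 FPKM in each library. The summed level of the 9 was 717, 1000 and 1165 FPKM. The keratins KRT8 (224, 414 and 505 FPKM) and KRT18 (169.5, 299 and 380 FPKM) were higher in both JG231 libraries. EPCAM had 302, 262 and 261 FPKM and CDH1 20.5, 25.2 and 20.2 FPKM. TP63 had 0.5003 FPKM in DMSO and 0.0593 at 2.5 μM and was listed at 0 at 5 μM, and KLK3, a secreted protease of luminal prostate cells, was not over 1 FPKM in any. Of 18 leukocyte markers, 13 were listed at 0 in every library, PTPRC, CD3E, MS4A1 and LYZ among them, and the summed level was 25.8, 7.01 and 5.29 FPKM. KIT made up most of it, and the other 17 summed to 1.69, 0.554 and 1.07 FPKM. The summed level of 12 fibroblast and endothelial markers was 6.003, 1.99 and 2.12 FPKM, and without CDH5 (4.92, 0.476 and 0.581 FPKM) it was 1.09, 1.51 and 1.54 FPKM, with COL1A1 at 0.823, 0.745 and 1.27 FPKM. The part of depth, transcript length, library composition and other cell types in the cytokine values was not tested.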

How the data were processed

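RNA-seq of H660 cells was analysed in 3 libraries, 1 per condition. The authors deposited FPKM values per gene, for which the study's methods name HISAT, StringTie and a TopHat and Cufflinks pipeline. The submitters' processing notes name HISAT2, featureCounts and GRCh38 (hg38), and which of these tools made the values is not clear. Versions, the annotation release and whether counting used the strand are not given in the sources used here. The input RNA is stated differently in the methods and the sample records. The cytokine genes and the 12 other lists were chosen with earlier results of these data known.

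Log2 changes used a pseudocount of 0.1 FPKM, which understates changes of low genes, and a gene was compared when over 1 FPKM in either library. No p-value was computed, since there is 1 library per condition. Identifiers of 58207 of the 58735 genes, all 10 cytokine genes included, were found in GENCODE release 44. The value of 1 fragment was found as the step on which FPKM multiplied by exon length falls in single-transcript genes. Within 0.15 of a whole fragment lay 91.9% of 4746 such genes under 50 fragments in DMSO, 89.7% of 3255 at 2.5 μM and 88.0% of 2025 at 5 μM. Fragments of a gene are approximate where exon lengths differ between annotations. Ratio intervals are exact conditional binomial (Clopper-Pearson) intervals. No count model was applied. The genes named are the cytokine genes, their receptors and locus neighbours, up to 3 rising and 3 falling genes in each other list (mean FPKM of at least 1, same sign at both doses, ranked by the smaller change), and the 5 genes nearest to CSF2. Cell type markers were named outside this rule, after their values were seen. Genes that passed from at most 3 to at least 100 fragments were named after their values were seen. Scripts were tested on simulated data. Alternatives were pseudocounts of 1 and 0.01, other filters, a threshold of 1 and other scalings. Their use between the doses and for the lists was chosen after seeing the data. The software was Biopython 1.88, matplotlib 3.10.9, scipy 1.17.1, pandas 2.3.3, numpy 2.4.6 and Python 3.11.15.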

Additional observations from a re-analysis of the deposited data

How the results depend on the processing

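The changes of the 7 cytokine genes over 1 FPKM kept their direction in 42 of 42 values under 3 other scalings at both doses, and 10 of these lay outside the counting interval. Each scaling shifts all genes of a comparison by nearly the same amount. The 42 values are thus not separate checks, and large changes could not have reversed. A pseudocount cannot change a direction. Of these 7 genes CSF2 depended most on the pseudocount, because its DMSO value is low. Its range was 3.33 to 5.53 at the lower dose and 2.93 to 5.09 at the higher. The median of the list was 1.09 at 2.5 μM and 1.66 at 5 μM with a pseudocount of 1 FPKM, and 0.81 and 0.83 with no filter, which adds the genes at 0. At 5 μM it was 1.88 with the libraries rescaled to genes other than mitochondrial and small RNA genes, and 1.76 when a mean FPKM of 5 was required. That stricter filter passed CXCL8, CXCL3 and CCL20 at both doses, with CSF2 at 2.5 μM and TNF at 5 μM, and 3 genes were higher at each dose. After the rescaling CXCL2 at 5 μM had a change of 0.01 and 5 genes were higher. Between the doses 2 genes were higher with libraries rescaled to a common sum, and 0 at a threshold of 1.
Over all genes, 5755 were higher and 7112 lower at 5 μM, and 5728 and 6830 at 2.5 μM. With the libraries rescaled to genes other than mitochondrial and small RNA genes, these were 3710 and 9704, and 3976 and 9083, so the share of higher among changed genes went from 44.7% to 27.7% and from 45.6% to 30.4%. Under the stricter filter the share was 62.2% at 5 μM and 62.1% at 2.5 μM. The share between the doses went from 47.1% to 27.2% with libraries rescaled to a common sum. With a threshold of 1, 2310 genes were higher and 3826 lower at 5 μM, and 2039 and 3416 at 2.5 μM, with 1061 and 1148 between the doses. No paired analysis was possible because each condition has 1 library and no result comes from a test, and for the same reason no library could be left out. The value of CSF2 in DMSO stands on 3.00 fragments, and those of IL1A, TNF, IL6, LIF and CXCL2 there on 7.60 to 70.8.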
